A study of Mus musculus with 23 samples.

Results

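The 10 genes described here are WNT feedback genes and WNT-driven transcription factors, chosen by symbol from the 54354 genes of the deposited count table: Axin2, Nkd1, Notum, Rnf43, Znrf3, Lef1, Tcf7, Sp5, Wif1 and Apcdd1. All 10 were found and each had counts. They were measured by bulk poly(A) RNA sequencing of cells sorted from mouse primary colon tumours. The tumours were grown by injecting AKP-tdT organoids that carry the Basp1-eGFP-DTR reporter into the colon, and the digested tumours were sorted into a GFP-negative population (12 libraries) and a GFP-positive population (11 libraries). The injected cells in both populations thus share the AKP background and the reporter. The labels list the genotype of every library as Basp1-GFP, and no tumour without Apc loss is among the libraries. Markers of fibroblasts and macrophages were also counted, with the higher medians in the GFP-negative libraries (values below). A library need therefore not hold cells of the injected organoids alone, and the part of other cells in the levels was not tested. AKP organoids carry an Apc mutation among others, and DTR is the diphtheria toxin receptor. The labels give no age, strain, diet or time for any library, and they name organoids as the source of the RNA where the series' design text names digested tumours. The series title names HFD (high-fat diet), and whether this applies to any of these libraries is not stated. How many organoid lines or mice stand behind the libraries is not stated, and the Apc mutation itself was not tested from these gene-level counts.

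In WNT signalling, secreted WNT proteins bind Frizzled and LRP receptors and stop the destruction complex of APC, AXIN, GSK3 and CK1 from marking beta-catenin for degradation. Beta-catenin then enters the nucleus, binds TCF and LEF factors and switches on target genes, several of which encode brakes on the same pathway. In the intestine this circuit maintains crypt stem cells, and loss of APC leaves beta-catenin active without a WNT signal, so that feedback genes such as Axin2, Nkd1 and Notum are widely used as readouts of the pathway in Apc-mutant tumours.

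The feedback acts at several levels. Axin2 is a scaffold of the destruction complex and Nkd1 binds Dishevelled inside the cell. Rnf43 and Znrf3 are membrane ubiquitin ligases that remove Frizzled receptors. Notum is a secreted enzyme that strips the lipid from WNT proteins, Wif1 is a secreted protein that binds WNTs, and Apcdd1 is a membrane glycoprotein that inhibits WNT signalling at the cell surface. Lef1 and Tcf7 are DNA-binding partners of beta-catenin, and Sp5 is a zinc finger transcription factor and direct WNT target.

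On the mouse genome build mm10 (GENCODE M21 annotation), 5 of the 10 genes lie on chromosome 11. Axin2 occupies positions 108920349 to 108950783 on the plus strand, Rnf43 87662722 to 87735539 on the plus strand, Notum 120653788 to 120661175 on the minus strand, Znrf3 5276324 to 5444847 on the minus strand and Tcf7 52252371 to 52283014 on the minus strand. Nkd1 lies on chromosome 8 from 88521354 to 88594884, Lef1 on chromosome 3 from 131110471 to 131224356, Sp5 on chromosome 2 from 70474923 to 70477729, and Wif1 on chromosome 10 from 121033960 to 121100650, all on the plus strand.

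TCF and LEF factors read the core letters CTTTG, with CTTTGA as a longer form, and the sequence before the start of 3 genes is shown because they span what was found: Axin2 as the common readout of the pathway, Sp5 as the promoter with the most matches, and Wif1 as the gene with the widest range of levels among those counted in all 19 libraries of at least 100000 counts. The sequences are from RefSeq (build GRCm38.p6), end 1 base before the annotated gene start, run 5′ to 3′ on the plus strand, and have CTTTG or its reverse complement CAAAG in capitals. They lie at chr11:108920099-108920348 (Axin2), chr2:70474673-70474922 (Sp5) and chr10:121033754-121033959 (Wif1).
Axin2: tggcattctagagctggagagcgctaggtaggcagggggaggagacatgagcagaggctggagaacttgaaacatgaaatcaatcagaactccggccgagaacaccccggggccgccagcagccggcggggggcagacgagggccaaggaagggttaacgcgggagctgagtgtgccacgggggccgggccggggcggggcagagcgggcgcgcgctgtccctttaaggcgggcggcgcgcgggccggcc
Sp5: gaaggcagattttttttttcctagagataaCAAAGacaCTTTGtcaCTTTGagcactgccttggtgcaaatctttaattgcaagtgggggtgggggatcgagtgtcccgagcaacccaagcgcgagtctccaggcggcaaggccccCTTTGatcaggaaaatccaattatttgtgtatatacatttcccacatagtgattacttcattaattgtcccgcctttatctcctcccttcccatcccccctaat
Wif1: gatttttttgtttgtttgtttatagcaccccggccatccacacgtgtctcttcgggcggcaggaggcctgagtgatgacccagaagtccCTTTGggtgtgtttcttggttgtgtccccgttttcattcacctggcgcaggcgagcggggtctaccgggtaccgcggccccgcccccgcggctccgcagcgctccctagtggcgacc
The Sp5 window held 4 matches to CTTTG, of which 2 were also matches to CTTTGA. The Wif1 window held 1 match to CTTTG and none to CTTTGA, and the Axin2 window held 0 matches. In all, 7 of the 10 genes were searched, with 12 promoter entries over up to 250 bases before the start and on both strands. CTTTG occurred in an entry of 3 of them (Lef1, Sp5 and Wif1) and CTTTGA in 2 (Lef1 and Sp5). Of all 32851 promoters in the table, 48.6% held CTTTG and 13.8% held CTTTGA in the 250 bases before the start, so that a match to the short form is common. These shares are per promoter entry, while a gene was counted with a match in any of its entries, of which Lef1 had 4. The gene counts and the shares are therefore not on the same scale.

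Library totals differed between the populations. They ran from 25458 to 2304316 counts in the GFP-negative libraries (median 144334) and from 37125 to 4238877 in the GFP-positive libraries (median 1418140), and 4 libraries held under 100000 counts (GFP-negative 4, 5 and 12 and GFP-positive 4). By the numbers in their names the libraries form an early run of 11 (library set 1, 6 of them GFP-negative) and a late run of 12 (library set 2, with 6 of each population), and the labels do not say what separates the runs. Epithelial markers were detected in every library. Their summed levels were 2298 to 6486 counts per 1000000 of the library total (CPM, median 3974) in the GFP-negative and 2192 to 6026 CPM (median 5013) in the GFP-positive libraries. Of 8 markers 7 were tested over all libraries, 5 higher and 2 lower in the GFP-positive libraries, with 0 called. Epcam had the largest log2 difference, 0.55 with an SE of 0.24 (unadjusted p = 0.0285, adjusted p = 0.992, edgeR). Macrophage markers summed to 387 to 6416 CPM (median 2482) in the GFP-negative and 139 to 30024 CPM (median 355) in the GFP-positive libraries. The top value was that of GFP-positive 3, next to at most 1038 CPM in the other GFP-positive libraries. Fibroblast markers summed to 148 to 8995 CPM (median 1841) in the GFP-negative and 0 to 2135 CPM (median 206) in the GFP-positive libraries. Basp1, whose locus carries the reporter, stood at 33.4 ± 27.0 CPM (SD, n = 12) and 57.8 ± 32.9 CPM (SD, n = 11), a log2 difference of 0.63 with an SE of 0.38 (adjusted p = 0.997, edgeR), so the sort was not visible as a called change of Basp1.

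None of the 10 genes differed between the populations by more than the spread between libraries. The 10 genes together made up 157 to 1677 CPM of a GFP-negative library (median 436) and 139 to 1449 CPM of a GFP-positive library (median 578), and the lowest sum was that of GFP-positive 3. Of the 6 genes that passed the filter on low counts over all libraries (Axin2, Nkd1, Notum, Rnf43, Wif1 and Apcdd1), edgeR's quasi-likelihood test called 0 at an adjusted p of 0.05, and 0 had an unadjusted p under 0.05. Over all 6621 genes tested the share called was 0.0151% (1 gene, lower in the GFP-positive libraries), the share with an unadjusted p under 0.05 was 4.95%, and DESeq2 called 24 genes with 0 of the 6 among them. The median log2 fold change of the 6 genes, GFP-positive minus GFP-negative, was -0.05, beside 0.07 over all genes tested. The sign of this median was not stable: with each library left out it ran from -0.16 (without GFP-negative 7) to 0.13 (without GFP-negative 11), over the 6 or 7 genes then tested, and it was above 0 without GFP-negative 2, 3, 6 or 11 or GFP-positive 3, 6 or 11. The other 4 genes (Znrf3, Lef1, Tcf7 and Sp5) were read from a fit without the filter, in which 0 of the 10 genes were called and 0 had an unadjusted p under 0.05. There the shares among 23846 genes were 0.00419% and 11.1%. In bulk samples, fewer cells of a type and less RNA per cell cannot be told apart, and this holds for every level given here.

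**Figure D1:**
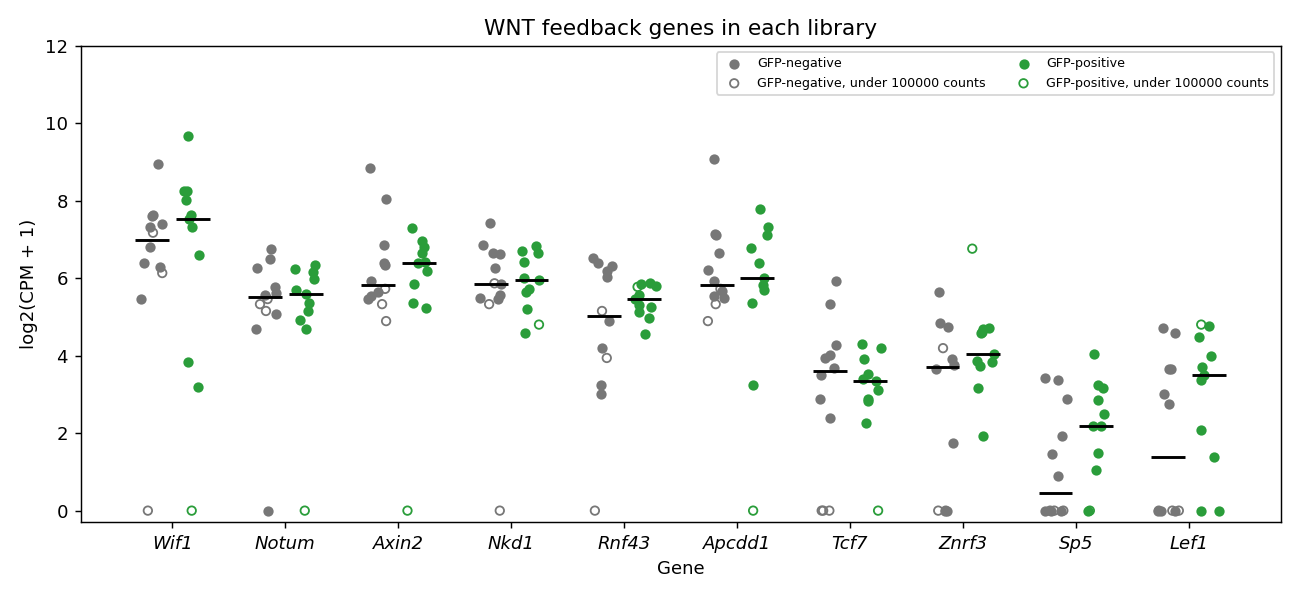
Level of each gene in each library as log2(CPM + 1), with GFP-negative libraries in grey, GFP-positive libraries in green, open circles for the 4 libraries under 100000 counts and a bar at the median of each group. The groups overlap for each of the 10 genes, Wif1 and Apcdd1 have the widest ranges among the genes counted in all libraries of at least 100000 counts, and most points at 0 belong to shallow libraries or to Znrf3, Sp5 and Lef1.

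Levels were compared between genes only after division by exon length, over the 19 libraries of at least 100000 counts. This length is that of the merged exons of all annotated transcripts, from 2.10 kb for Sp5 to 8.79 kb for Lef1 and 12.9 kb for Apcdd1. The transcripts made in these cells may be shorter, so the order of the genes depends in part on the annotation. Wif1 had the highest length-scaled level, with a median of 69.0 CPM per kb of exon and a range from 3.36 to 337. It was above Notum in 16 of the 19 libraries. Notum (median 20.0 CPM per kb), Axin2 (15.2) and Nkd1 (14.0) followed, and these neighbours were not separated beyond their spread, since Notum was above Axin2 in 13 of 19 libraries and Axin2 above Nkd1 in 7 of 19. Nkd1 was above Rnf43 (6.52 CPM per kb) in all 19 of these libraries. Rnf43 and Apcdd1 (5.66) changed places from library to library, as Rnf43 was the higher in 11 of 19, and Apcdd1 was above Tcf7 (4.03) in 12 of 19. Tcf7 was above Znrf3 (1.71) in 16 of 19. Znrf3, Sp5 (1.68) and Lef1 (1.06) formed the low end with no clear order, with Znrf3 above Sp5 in 12 of 19 and Sp5 above Lef1 in 9 of 19. Within the set, then, the secreted inhibitor Wif1 was far more abundant per length than the transcription factors, while the ligase pair was unequal, with Rnf43 above Znrf3 at the median.

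**Figure D2:**
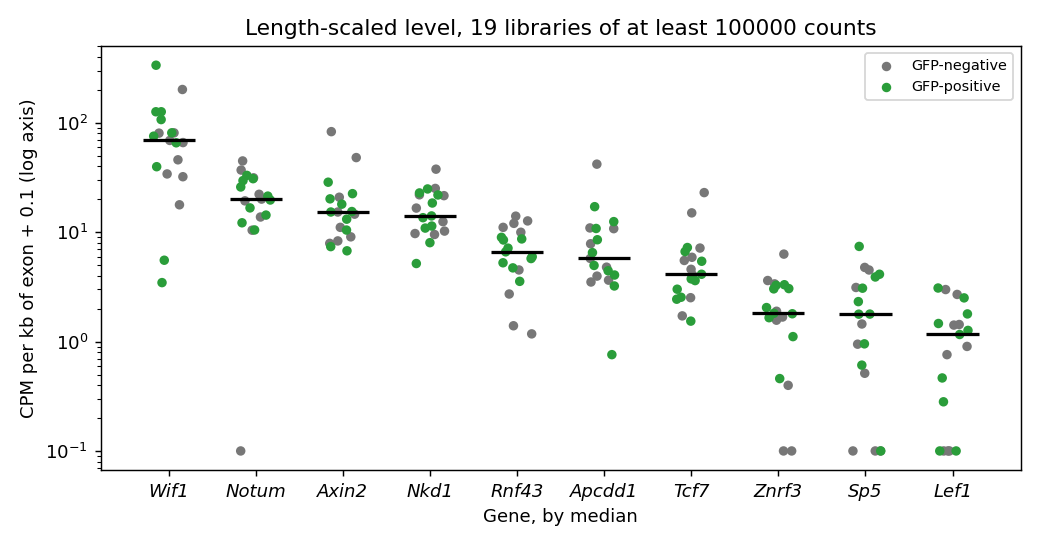
Length-scaled level of each gene, in CPM per kb of exon plus 0.1 on a log axis, in the 19 libraries of at least 100000 counts, with a bar at the median and genes in order of the median. Wif1 leads with a median of 69.0 CPM per kb and spans from 3.36 to 337, and Lef1 is lowest with a median of 1.06.

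Among the genes that act inside the WNT-receiving cell, Axin2 ran from 28.7 CPM (GFP-negative 12) through a median of 56.2 to 458 CPM (GFP-negative 3) in the GFP-negative libraries. In the GFP-positive libraries it ran from 0 (GFP-positive 4) through a median of 83.8 to 157 CPM (GFP-positive 9). The GFP-negative range thus reached higher, through GFP-negative 3 and GFP-negative 11 (265 CPM), while its median was the lower of the pair. The means were 110 ± 127 CPM (SD, n = 12) and 78.6 ± 44.3 CPM (SD, n = 11), and the log2 fold change was -0.39 with an SE of 0.39 (95% interval -1.19 to 0.41, adjusted p = 0.997 by edgeR). The sign of this fold change rested on GFP-negative 3, without which it was 0.06. A level of 0 allows up to 3 counts, which is 80.8 CPM in GFP-positive 4 and 118 CPM in GFP-negative 5. In GFP-negative 4 and GFP-negative 10 it is 52.0 and 25.8 CPM. Lows of 0 in these libraries, here and below, are therefore not measured lows.

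Nkd1 ran from 0 (GFP-negative 4) through 57.0 to 172 CPM (GFP-negative 3) in the GFP-negative libraries and from 23.1 (GFP-positive 3) through 61.5 to 113 CPM (GFP-positive 10) in the GFP-positive libraries. The medians lay close and the GFP-negative range, through the 0 of a shallow library, enclosed the GFP-positive one. The log2 fold change was -0.09 with an SE of 0.31 (95% interval -0.71 to 0.53), the narrowest interval of the 10 genes, and 0.07 without GFP-negative 3.

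Of the membrane ligases, Rnf43 ran from 0 (GFP-negative 5) through 31.8 to 91.4 CPM (GFP-negative 2) in the GFP-negative libraries and from 22.7 (GFP-positive 3) through 42.8 to 58.3 CPM (GFP-positive 10) in the GFP-positive libraries. The 0 in GFP-negative 5 allows up to 118 CPM, above the highest GFP-negative value. The GFP-positive libraries were the tighter group, at 43.2 ± 11.8 CPM (SD, n = 11) beside 41.7 ± 33.8 CPM (SD, n = 12), and they were also the deeper libraries. The log2 fold change was -0.02 with an SE of 0.35.

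Znrf3, the partner ligase, was listed at 0 in 4 of 12 GFP-negative libraries and in none of the 11 GFP-positive libraries, which were deeper. Its GFP-negative values had a median of 12.0 CPM and a maximum of 49.0 CPM (GFP-negative 11). Its GFP-positive values ran from 2.83 (GFP-positive 3) through 15.4 to 108 CPM, the top value being 4 counts in GFP-positive 4. In the fit without the filter the log2 fold change was 0.48 with an SE of 0.49 (95% interval -0.51 to 1.46, adjusted p = 0.755 by edgeR).

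Among the secreted and surface inhibitors, Notum ran from 0 (GFP-negative 10) through 44.8 to 108 CPM (GFP-negative 11) in the GFP-negative libraries and from 0 (GFP-positive 4) through 47.2 to 79.5 CPM (GFP-positive 1) in the GFP-positive libraries. The groups had near-equal medians and overlapped over most of their range. The means of 49.6 ± 29.2 CPM (SD, n = 12) and 46.7 ± 24.2 CPM (SD, n = 11) gave a log2 fold change of 0.02 with an SE of 0.33 (95% interval -0.65 to 0.70).

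Wif1 ran from 0 (GFP-negative 5) through 128 to 490 CPM (GFP-negative 11) in the GFP-negative libraries and from 0 (GFP-positive 4) through 183 to 817 CPM (GFP-positive 10) in the GFP-positive libraries. High and low libraries were found in both populations: GFP-positive 9 had 8.16 CPM, GFP-positive 3 had 13.2 CPM and GFP-negative 10 had 43.0 CPM. The means were 145 ± 125 CPM (SD, n = 12) and 213 ± 230 CPM (SD, n = 11), and the log2 fold change of 0.61 had an SE of 0.59 (95% interval -0.62 to 1.85). Without GFP-positive 10 it was 0.11, and without GFP-negative 11 it was 0.88. This interval includes no change as well as differences of more than 3-fold, so the size of a difference in Wif1 between the populations is poorly bounded by these libraries.

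Apcdd1 (chromosome 18, positions 62922231 to 62961179 on the plus strand) ran from 28.7 (GFP-negative 12) through 56.2 to 539 CPM (GFP-negative 11) in the GFP-negative libraries and from 0 (GFP-positive 4) through 62.8 to 220 CPM (GFP-positive 10) in the GFP-positive libraries. Its medians lay close, and GFP-negative 11 stood far above the next GFP-negative value of 140 CPM. The log2 fold change was -0.23 with an SE of 0.50 (95% interval -1.27 to 0.80), and 0.31 without GFP-negative 11.

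The transcription factors were the hardest to count. Lef1 had 55 counts in all over the GFP-negative libraries, in 6 of 12 of them, and 196 counts over the GFP-positive libraries, in 9 of 11. Its medians were 2.90 and 10.2 CPM and its highest values 25.4 and 26.9 CPM. In the fit without the filter the log2 fold change was 0.44 with an SE of 0.63 (adjusted p = 0.782 by edgeR).

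Tcf7 had medians of 11.1 CPM in the GFP-negative and 9.22 CPM in the GFP-positive libraries, with highest values of 60.2 CPM (GFP-negative 10, 7 counts) and 18.8 CPM (GFP-positive 5). Its log2 fold change without the filter was -0.46 with an SE of 0.50 (adjusted p = 0.766 by edgeR). T cells and innate lymphoid cells also use Tcf7 and Lef1. Of 14 markers of these cells, 5 were at 0 in every GFP-negative library and 5 in every GFP-positive library, and the summed level was 52.0 to 496 CPM (median 193) and 118 to 777 CPM (median 310). Most of this sum was Trbc1, with means of 181 and 308 CPM, while the T cell receptor subunits Cd3e, Cd3d and Cd3g and the co-receptor Cd8a were at 0 in every library. The part of such cells in the Tcf7 and Lef1 levels was not tested.

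Sp5 had 16 counts over the GFP-negative libraries, in 6 of 12, and 62 over the GFP-positive libraries, in 9 of 11. The highest levels were 9.80 CPM and 15.4 CPM (GFP-positive 6, 5 counts), and the log2 fold change without the filter was 0.71 with an SE of 0.75 (adjusted p = 0.766 by edgeR). At these counts a difference of moderate size in the transcription factors was not detectable.

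The same comparison was run within each library set. In set 1, 0 of 6 genes tested were called (0.00% of 5256 genes, with 5.40% and 0 of the 6 at an unadjusted p under 0.05), and the 6 log2 fold changes were below 0, with a median of -0.39 beside 0.05 over all genes. For Wif1 and Notum this sign was not stable. Wif1, at -0.03, turned to 0.02 with RLE size factors, to 0.04 with DESeq2, to 0.11 without the filter and to values above 0 in 6 of the 11 fits that left out a library (GFP-negative 1, 2 or 6 or GFP-positive 2, 3 or 4). Notum, at -0.13, turned to 0.012 without the filter and to values above 0 in 4 of the 11 (without GFP-negative 3 or 6 or GFP-positive 3 or 4). The median of the genes tested ran from -0.64 (without GFP-positive 5) to -0.13 (without GFP-negative 3). Axin2 was furthest from 0 there: the GFP-positive libraries 1 to 5 had 72.0, 83.8, 40.1, 0 and 98.9 CPM, and the GFP-negative libraries ran from 39.3 through 67.9 to 458 CPM. The ranges overlapped, and the log2 fold change of -1.07 (SE 0.55, unadjusted p = 0.0696, adjusted p = 0.925 by edgeR) was not called. Without GFP-negative 3, which carries an identifier that no GFP-positive library shares, it was the smallest of the values obtained by leaving out a library, at -0.17.

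In set 2, 0 of 7 genes tested were called (Znrf3 also passed the filter there), where 1.28% of 6952 genes were called, 3 higher and 86 lower in the GFP-positive libraries. At an unadjusted p under 0.05 the counts were 0 of the 7 and 6.88% of all genes. The log2 fold change was above 0 for 6 of the 7, with a median of 0.23 beside 0.07 over all genes, and RLE size factors turned Znrf3 from 0.01 to -0.05. Wif1 had the largest value, 0.88 with an SE of 0.84, which was 0.21 without GFP-positive 10 and 1.40 without GFP-negative 11. For the 6 genes tested over all libraries, the difference between the sets was above 0 for all 6 (median 0.60), yet the interaction of population and set called 0 of them and 0.00% of 6621 genes (0 of the 6 and 6.40% at an unadjusted p under 0.05). Axin2 had the largest interaction, 1.26 with an SE of 0.77 (adjusted p = 0.799 by edgeR). The direction in a set is therefore not shown to differ from that in the other.

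**Figure D3:**
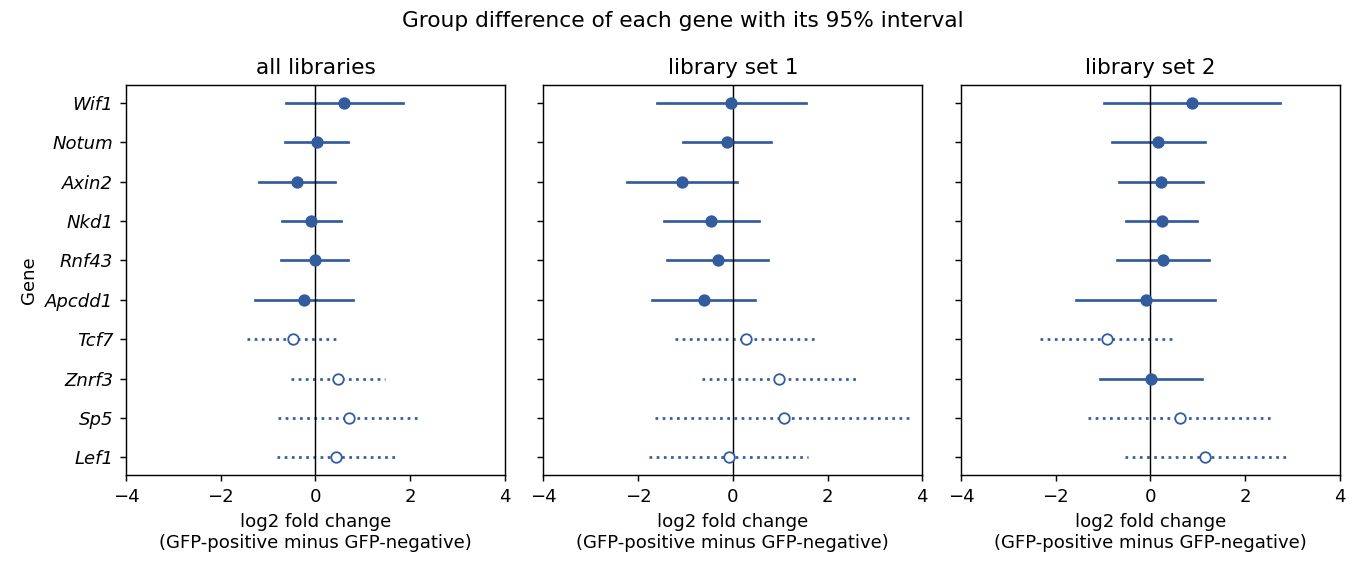
Log2 fold change of each gene, GFP-positive minus GFP-negative, with its 95% interval from edgeR over all libraries and within each library set. Filled points passed the filter on low counts, and open points with dotted lines come from the fit without it. Each interval includes 0, and the Wif1 interval over all libraries runs from -0.62 to 1.85.

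Wif1 and Apcdd1 had the widest ranges of the genes counted in all 19 deeper libraries, where their highest level was 100.1-fold and 63.4-fold the lowest, and in library set 2 their levels differed between the identifiers in the library names. The names 8045 (GFP-negative 5), 8050 (GFP-negative 4) and 8045-8050 (GFP-positive 4) were counted as 1 identifier, which gives 11 identifiers, of which 10 occur in both populations. These 3 libraries all held under 100000 counts and are not in set 2's test between identifiers. The labels do not say what an identifier is. Both Wif1 libraries of identifier 7914 were the highest of their population, with 490 CPM (50 counts) in the GFP-negative and 817 CPM (1389 counts) in the GFP-positive library. Both libraries of identifier 7907 were the lowest of their population in library set 2, with 43.0 CPM (5 counts) and 8.16 CPM (7 counts). Between these lay identifier 40-1 with 197 and 307 CPM, 7968 with 144 and 159 CPM, 61-1 with 111 and 260 CPM and 5780 with 77.9 and 197 CPM, each given as GFP-negative and then GFP-positive. Identifier 61-1 had another GFP-positive library in library set 1, GFP-positive 2, with Wif1 at 96.3 CPM (270 counts). Levels within an identifier and population can thus also lie apart.

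Whether levels differed between identifiers, with the population as a second term, was tested with edgeR over the whole table, a test chosen after the values had been seen. In library set 2, which holds 6 identifiers with a library of each population, 2.26% of 6952 genes were called and 2 of the 7 WNT genes tested were among them. Wif1 had F = 17.9 (adjusted p = 4.41e-07 by edgeR), the rank of 14 among all genes tested. Without the 7914 pair it kept its call (F = 8.89, adjusted p = 0.0113 by edgeR). Apcdd1 had F = 6.30 (adjusted p = 0.0146 by edgeR), and this call rested on the 7914 pair (539 and 220 CPM), without which F fell to 0.525. The other 5 genes tested, Axin2, Nkd1, Notum, Rnf43 and Znrf3, had adjusted p of 0.676 or more.

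Over all libraries, in which 22 libraries share 10 identifiers, the same test called 0.614% of 6673 genes and 0 of the 7 WNT genes tested. Wif1 had an unadjusted p of 0.0376 and an adjusted p of 0.491, and Apcdd1 an unadjusted p of 0.0185 and an adjusted p of 0.363, both by edgeR. Among the identifiers with no library under 100000 counts, the libraries of 7789-7795 lay furthest apart, with Wif1 at 160 CPM in GFP-negative 6 and 13.2 CPM in GFP-positive 3, and Apcdd1 at 99.8 and 8.50 CPM. Without that pair 2.90% of 6345 genes were called, Wif1 reached an adjusted p of 0.00149 and Apcdd1 of 0.00624 by edgeR. The pair is singled out here by these same values, so the fit without it is no separate support for a difference between identifiers. Leaving out any library of another identifier called 0 of the WNT genes. Without the filter on low counts the test called 3.35% of 23783 genes, Wif1 and Apcdd1 among them, and without the libraries under 100000 counts it called 0.107% of 7499 genes and 0 of the WNT genes. GFP-positive 3 is the library with macrophage markers at 30024 CPM, and its epithelial sum was 2673 CPM. It was also low in other members, with Axin2 at 40.1, Nkd1 at 23.1, Notum at 25.0 and Rnf43 at 22.7 CPM and with Lef1 and Sp5 at 0. The part of the macrophage transcripts in these low values was not tested.

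Between the 7907 and 7914 libraries, the epithelial marker sum went against Wif1 in the GFP-positive population and with it in the GFP-negative population, while the fibroblast sum was the higher in the 7907 library of each population. GFP-positive 9 (identifier 7907, Wif1 at 8.16 CPM) had an epithelial sum of 6026 CPM, the highest of the GFP-positive libraries, and a fibroblast sum of 337 CPM. GFP-positive 10 (identifier 7914, Wif1 at 817 CPM) had 3800 and 169 CPM. In the GFP-negative population, GFP-negative 10 had 2298 CPM of epithelial and 7280 CPM of fibroblast markers, and GFP-negative 11 had 4137 and 3451 CPM. The part of these cells in the Wif1 levels was not tested. GFP-positive 9 was not low in Axin2, whose level of 157 CPM was the highest of the GFP-positive libraries.

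**Figure D4:**
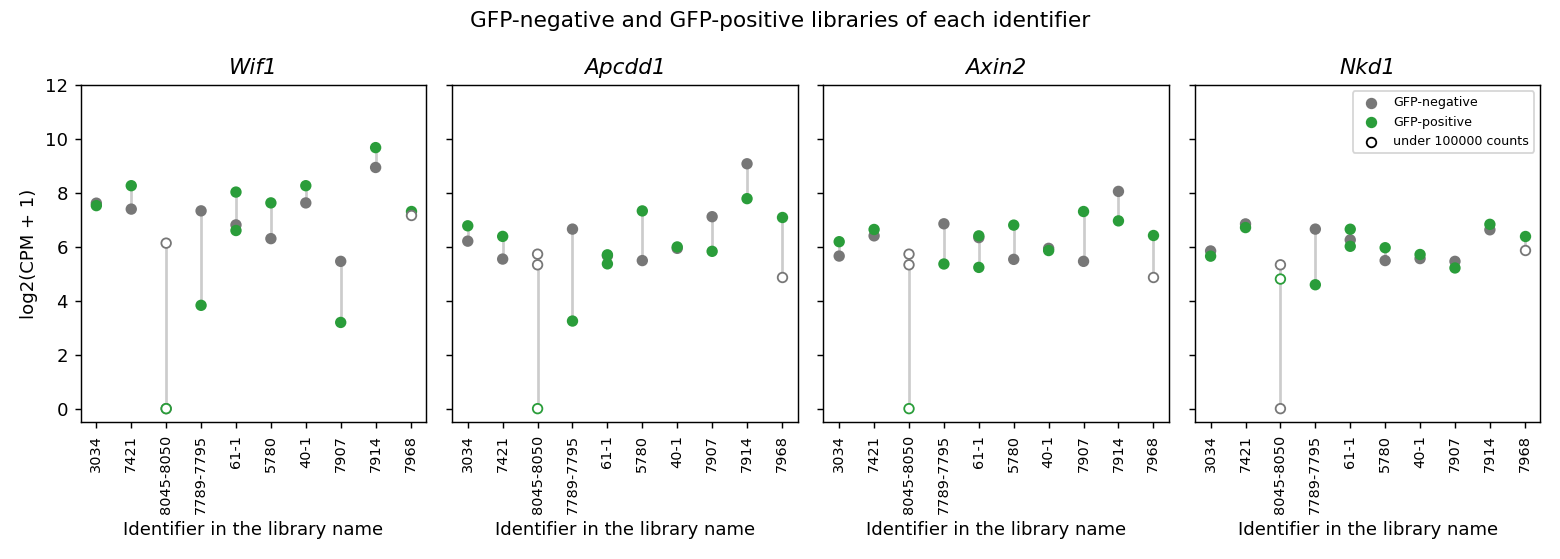
Level of Wif1, Apcdd1, Axin2 and Nkd1 as log2(CPM + 1) by the identifier in the library name, with GFP-negative libraries in grey, GFP-positive libraries in green and open circles for libraries under 100000 counts. Wif1 is highest in both libraries of 7914 (490 and 817 CPM) and low in both of 7907 (43.0 and 8.16 CPM), while Nkd1 varies less between identifiers.

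Within identifiers the sign of the difference between populations was mixed. Of the 10 identifiers with both populations, the GFP-positive level was the higher in 5 for Axin2, 6 for Nkd1, 5 for Notum, 6 for Rnf43, 7 for Znrf3, 6 for Lef1, 4 for Tcf7, 6 for Sp5, 6 for Wif1 and 5 for Apcdd1. An identifier at 0 in both populations counted as not higher. Among the 8 identifiers with no library under 100000 counts, the number was 4 for Axin2, Nkd1, Notum, Rnf43, Lef1 and Apcdd1. There it was 5 for Znrf3, Sp5 and Wif1 and 3 for Tcf7. Wif1 was higher in the GFP-positive library in 5 of the 6 identifiers of library set 2, the exception being 7907. None of the 10 genes moved in 1 direction in all identifiers.

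The genes of the set varied together to different degrees. Over the 19 libraries of at least 100000 counts, the Spearman rho of log2 CPM was 0.69 for Nkd1 with Rnf43, 0.66 for Nkd1 with Notum, 0.57 for Axin2 with Nkd1, 0.57 for Axin2 with Rnf43, 0.51 for Notum with Rnf43 and 0.50 for Axin2 with Notum. These 4 genes, which act in the cytoplasm, at the membrane and outside the cell, had the most similar patterns of the 6 tested. Wif1 followed them less (0.11 with Axin2 and 0.38 with Nkd1), and its rho with Apcdd1 was 0.44. The median over the 15 pairs of the 6 tested genes was 0.43, beside 0.01 over all pairs of the 6621 tested genes, and 5 of the 15 pairs were above 0.5, a share of 33.3% beside 3.30% over all pairs. Without GFP-positive 3 the values for the first 4 genes lay between 0.44 and 0.67. These values are descriptions: the points share libraries and depth, and both populations are pooled.

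For each gene tested over all libraries, the 3 genes of most similar pattern among the tested genes were found by the same measure. For Axin2 they were Nfs1 (rho 0.86), Akirin2 (0.82) and Epb41 (0.80). For Nkd1 they were Ly6d (0.89), Pllp (0.84) and Otop1 (0.79), and for Rnf43 Otop1 (0.87), Sox21 (0.82) and Polr3b (0.81), so that Otop1 stood on both lists. Among the 3 closest to Notum were Pnpla6 (0.77) and Ogt (0.75). Among the 3 closest to Wif1 were Rrn3 (0.83) and Gp2 (0.82). Apcdd1 was closest to Slc44a2 (0.78), Scd1 (0.73) and Wipi1 (0.72). No other member was among the 3 closest of any member. These are the highest rho values among all tested genes over only 19 libraries. How high such top values run by chance was not tested, so the genes named are a description and not shown partners.

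The rest of the pathway held no called gene between the populations over all libraries. Of 25 ligands and ligand-processing genes, 2 passed the filter and 0 were called. These were Wls, the WNT carrier protein, at 123 ± 64.8 CPM (SD, n = 12) and 99.4 ± 26.9 CPM (SD, n = 11) with a log2 fold change of -0.39 (SE 0.25), and Wnt7b, a WNT ligand, with 0.86 (SE 0.44). Of 17 receptors 3 were tested and 0 called: the log2 fold change of the co-receptor Lrp6 was -0.03 (SE 0.37), that of the WNT receptor Ryk -0.33 (SE 0.41) and that of the R-spondin receptor Lgr6 0.93 (SE 0.51). Of 13 transducers 9 were tested and 0 called, with a median of 0.03. Beta-catenin itself (Ctnnb1) stood at 249 ± 125 CPM (SD, n = 12) and 251 ± 89.1 CPM (SD, n = 11), and the destruction complex kinase Csnk1a1 had a log2 fold change of 0.03 (SE 0.21). Of 12 nuclear partners 8 were tested and 0 called (median -0.02), among them Tcf7l2, the main intestinal TCF factor, with -0.15 (SE 0.31). Of 15 other intestinal WNT targets 13 were tested and 0 called, with a median of 0.24 beside 0.07 over all genes. The largest by level, Cd44, Mmp7 and Slc12a2, had log2 fold changes of 0.44 (SE 0.24), 0.61 (SE 0.37) and 0.34 (SE 0.34).

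Further secreted or surface inhibitors were the only pathway list with called genes, and this in library set 2 only among the fits with the filter. Over all libraries 4 of 14 were tested and 0 called. Dkk2, an LRP-binding inhibitor, had a log2 fold change of 0.23 (SE 0.27) and Sfrp1, a secreted WNT-binding protein, -2.75 (SE 0.78, adjusted p = 0.730 by edgeR). In library set 2, 2 of 6 tested were called lower in the GFP-positive libraries, beside 1.24% of all genes: Sfrp1 with -3.66 (SE 0.57, adjusted p = 0.00148 by edgeR) and its relative Sfrp4 with -5.13 (SE 0.81, adjusted p = 0.00274 by edgeR). In the same set, fibroblast markers were called lower for 5 of 8 tested (median log2 fold change -3.36) and macrophage markers for 6 of 7 (median -3.66), and the part of these cells in the SFRP levels was not tested. Wif1, likewise a secreted WNT-binding inhibitor, had a log2 fold change of 0.88 in set 2 and was not called. Without the filter, 375 of 20824 genes were called in set 2, 347 of them lower. Besides Sfrp1 and Sfrp4, these included the inhibitor Frzb (-4.03, SE 0.95, adjusted p = 0.00267 by edgeR) and the receptor Fzd1 (-1.90, SE 0.57, adjusted p = 0.0450 by edgeR). The WNT target Mmp7 was called higher there (1.05, SE 0.28, adjusted p = 0.0184 by edgeR).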

How the data were processed

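Gene-level estimated counts for 54354 genes in 12 GFP-negative and 11 GFP-positive libraries were deposited by the authors. Salmon 1.3.0 and the build mm10 are named in the submitters' processing notes, and libraries were made with a stranded poly(A) kit per the labels' protocols. The deposited expected counts were whole numbers and were used as they stand. CPM is a count per 1000000 of the library total. The main test was edgeR 4.0.16 (TMM, filterByExpr, robust quasi-likelihood, no covariate) on the whole table, with Benjamini-Hochberg adjustment over all genes tested and a threshold of 0.05. The SE of a log2 fold change was derived from that fit, as the size of the fold change over the square root of the test's F statistic. The 95% interval was built from this SE. Both are approximate and can depart from the p-value of the test. Genes under the filter were read from the same fit without it. The script was tested on simulated data. DESeq2 1.42.0, other scalings and filters, replicate blocks, library sets and left-out libraries were alternatives. Genes were named by rule: the 10 members, up to 3 genes of highest mean CPM per pathway role, called pathway genes, and the 3 genes of most similar pattern, of which a few are not reported here. The log2 CPM of that measure had a prior count of 2. The members and lists were chosen with earlier results of these data known. The labels do not say that libraries came from separate mice, so p-values measure the spread between libraries, which may be partly technical. Depth sets the precision: 3 counts is the limit that a 0 allows, which is 118 CPM in the shallowest library. This covers counting error only. The promoters of Apcdd1, Notum and Znrf3 were not analysed here.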

Additional observations from a re-analysis of the deposited data

Results flagged for a closer look

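Within each population of a library set, the highest and the lowest CPM of each tested gene were compared with the rest by Dixon's rule for outliers. Of 26 groups of libraries tested, 5 had a library that stood apart, where chance gives about 1.3 for normal values and independent groups. The CPM were not on a log scale and the genes share libraries, so this number is only a rough guide. All 5 flagged values were high and 3 came from the same library, GFP-negative 11. There Apcdd1 stood at 539 CPM (55 counts) next to 138 CPM in the nearest library, Wif1 at 490 CPM (50 counts) next to 197 CPM, and Axin2 at 265 CPM (27 counts) next to 80.02 CPM. Wif1 was also apart in GFP-positive 10, at 817 CPM (1389 counts) next to 307 CPM, and this library carries the same identifier, 7914, as GFP-negative 11. Axin2 stood at 458 CPM (72 counts) in GFP-negative 3 of library set 1 next to 115 CPM.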

How the results depend on the processing

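In 71 fits of the difference between populations or of its interaction with the library set, 0 called one of the 10 genes, and the smallest adjusted p of a member was 0.385 (edgeR, Wif1 in library set 2 with a replicate block by identifier, where its log2 fold change was 0.68). The counts of all genes called moved more. Over all libraries the main fit called 1 gene, DESeq2 24, a replicate block by identifier 3, a replicate block by title number 2, that by identifier without the filter 74, and the fit without the filter and without libraries under 100000 counts 0 (these last 2, like the test between identifiers, were chosen after the data were seen). Leaving out each library gave 0 to 16, the most without GFP-positive 3. In library set 1 DESeq2 called 6 genes and left-out libraries gave 0 to 6, the most without GFP-negative 6. In library set 2 the fit without the filter called 375, DESeq2 142 and the block 140, beside 89. The test between identifiers called 2 members over all libraries without the filter, 0 to 2 with a library left out, and 1 to 2 in library set 2.

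Of 441 alternative log2 fold changes of members, 65 had the other sign, none of them called, and the cause was not tested. Without the filter these were Nkd1 at 0.027 and Rnf43 at 0.092 over all libraries, Notum at 0.012 and Wif1 at 0.11 in set 1 and Apcdd1 at 0.12 in set 2. With at least 1 count in 11 libraries as the filter, Nkd1 was 0.012 and Rnf43 0.081. The replicate block by identifier gave Axin2 0.048 and Rnf43 0.31 over all libraries and Znrf3 -0.012 and Apcdd1 0.13 in set 2, and without the filter Axin2 0.17, Nkd1 0.029 and Rnf43 0.44. The block by title number, whose numbers share an identifier in 2 of 11 cases, gave Notum -0.0054 and Rnf43 0.14. Notum was -0.029 with RLE size factors, -0.013 with DESeq2 and -0.012 with library totals alone, and Rnf43 was 0.0059 with the library set as covariate. In set 1 Wif1 was 0.024 with RLE and 0.038 with DESeq2, and in set 2 Znrf3 was -0.050 and -0.013. Wif1 over all libraries moved from 0.61 to 0.033 with the replicate block by identifier and to 0.0053 with that by title number, and the median of the 6 genes tested moved from -0.054 to 0.041 with the block by identifier. With each library left out, Axin2 ran from -0.52 to 0.061, Nkd1 from -0.23 to 0.070, Notum from -0.086 to 0.13, Rnf43 from -0.16 to 0.10, Wif1 from 0.11 to 0.88 and Apcdd1 from -0.52 to 0.31 over all libraries. In set 1 Notum ran from -0.31 to 0.071 and Wif1 from -0.61 to 0.28, and in set 2 Notum from -0.0074 to 0.48, Znrf3 from -0.11 to 0.35, Wif1 from 0.21 to 1.40 and Apcdd1 from -0.43 to 0.93.

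Libraries of the same identifier did not always deviate together. The correlation of their deviations from the group means was above 0.1 in 6 of 12 pairs (median 0.10, -0.28 to 0.48). For pairs of different identifiers it was above 0.1 in 10 of 55 within a library set (median -0.02) and 17 of 65 between sets (median -0.004). Libraries of an identifier thus tended to be more alike than others, and the labels do not say why. The main test did not use the identifier as a pairing, so any such sharing is left out of it, and fits with the identifier as a block are given above. Title numbers share an identifier in 2 of 11 cases. Depth is the main limit: 4 libraries held under 100000 counts, and Lef1, Sp5, Tcf7 and Znrf3 had too few counts for the filter over all libraries.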
